A study of Mus musculus with 8 samples.

Results

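The genes described here are 38 genes of the ATF4 stress response and the unfolded protein response, taken by symbol from the 23827 rows of a table of read counts. Each symbol stood on 1 row, and all 38 passed the filter on low counts among the 14592 genes tested. RNA came from the superior cervical ganglia, the sympathetic ganglia at the top of the chain, of C57Bl6/n mice on postnatal day 1. The 4 conditional knockout (cKO) animals had the genotype KIF1Bb fl/fl :DBHcre +/-, so their floxed Kif1b beta allele could be cut only in cells that had expressed Cre from the Dbh promoter, which noradrenergic cells use. The 4 WT animals carried the same floxed alleles without Cre (DBHcre -/-). Cre was thus present in the cKO group alone, and its own effect and that of the deletion cannot be told apart. Each library was made from the ganglion pair of 1 animal.

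The list joins a pair of signalling branches. In the integrated stress response, kinases such as PERK (Eif2ak3) phosphorylate the initiation factor eIF2, general translation slows, and the mRNA of the transcription factor ATF4 is translated more. ATF4 then drives genes of amino acid synthesis and of feedback on translation. In the unfolded protein response, PERK, IRE1 (Ern1) and ATF6 sense misfolded protein in the endoplasmic reticulum (ER). IRE1 splices Xbp1 mRNA, and XBP1 and ATF6 drive chaperones and the degradation of misfolded protein. Withdrawal of trophic support and axon damage are both known to engage parts of this response in sympathetic and sensory neurons. Counts per gene do not show eIF2 phosphorylation, ATF4 protein, ATF6 cleavage or Xbp1 splicing.

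Promoter motifs known from both branches are shown first, as background to the roles by which the genes are ordered. RefSeq promoters (GRCm38.p6, 250 bases before and 50 after each gene start) were matched for 34 of the 38 genes. The ER stress element, bound by ATF6, was searched on both strands as CCAAT, 9 bases and CCACG. It lay in the promoters of 8 of these 34 genes (23.5%), against 0.137% of 27025 genes with a promoter. These were Calr, Canx, Creld2, Dnajc3, Hsp90b1, Hspa5, Pdia6 and Syvn1, 7 of them among the 11 chaperone and folding genes that had a promoter. The element was described from promoters of this family, so its presence is background and not a result of these libraries. The 250 bases before the RefSeq start of Hspa5 (chr2:34771840-34772089, plus strand) come first. The GENCODE vM21 annotation begins this gene at 34771970, before its RefSeq start and before the element. Windows follow for Hsp90b1 (chr10:86705513-86705571, minus strand), Calr (chr8:84847055-84847113, minus strand) and Pdia6 (chr12:17266471-17266529, plus strand). All sequences read 5′ to 3′ along the gene, with the element in capitals.
Hspa5: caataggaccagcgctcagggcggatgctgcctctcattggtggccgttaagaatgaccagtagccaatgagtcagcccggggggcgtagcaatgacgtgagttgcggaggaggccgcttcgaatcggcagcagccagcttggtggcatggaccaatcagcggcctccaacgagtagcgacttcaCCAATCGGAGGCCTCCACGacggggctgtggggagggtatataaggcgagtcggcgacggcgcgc
Hsp90b1: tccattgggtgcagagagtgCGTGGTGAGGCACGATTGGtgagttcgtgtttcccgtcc
Calr: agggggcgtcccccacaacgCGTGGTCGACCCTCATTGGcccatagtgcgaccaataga
Pdia6: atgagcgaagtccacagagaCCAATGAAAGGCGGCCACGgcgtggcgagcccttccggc

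The CEBP-ATF response element, bound by ATF4 with a C/EBP partner, was searched as TGATG, 1 base and AA. It lay in the promoters of Asns, Chac1, Herpud1, Nupr1 and Trib3, 5 of 34 genes (14.7%), against 4.51% of all genes with a promoter. The windows of Asns (chr6:7693205-7693252, minus strand) and Chac1 (chr2:119351029-119351076, plus strand) show it in capitals. A second form of the ER stress element (ATTGG, 1 base and CCACG) lay in the promoter of Herpud1 (chr8:94386357-94386407, plus strand) and in 0.0444% of all genes with a promoter. The unfolded protein response element TGACGTGG lay in 0 of the 34 promoters and in 0.714% of all. No match of one motif overlapped a match of another.
Asns: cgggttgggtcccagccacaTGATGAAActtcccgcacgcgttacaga
Chac1: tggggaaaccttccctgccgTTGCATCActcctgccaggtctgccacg
Herpud1: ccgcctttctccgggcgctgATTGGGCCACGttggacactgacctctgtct

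Libraries held between 16214912 and 18114418 counts. The targeted gene Kif1b averaged 260 ± 52.7 CPM (counts scaled to library size) in cKO and 1224 ± 222 CPM in WT ganglia (SD, n = 4 each). The noradrenergic enzyme genes Th and Dbh were high in all libraries, at 1149 to 1302 and 2028 to 2194 CPM in cKO and 1267 to 1493 and 2261 to 2693 CPM in WT ganglia. Marker levels of some other cells of the ganglion differed between the groups. Summed over 12 fibroblast and matrix markers, cKO libraries lay between 8778 and 12816 CPM and WT libraries between 6323 and 8108 CPM. Of the 12 genes, 8 passed an adjusted p below 0.05 in edgeR's test, against 2.72% of all tested genes. The 10 blood vessel markers summed to 452 to 548 CPM in cKO and 283 to 343 CPM in WT libraries, where 5 passed. Of the glial markers 1 of 10 passed, of the macrophage and leukocyte markers 0 of 9, and of the dividing cell markers 0 of 10. The 15 sympathetic neuron markers summed to 18846 to 20993 CPM in cKO and 22543 to 24000 CPM in WT libraries, and 0 passed. Fewer cells of a type and less RNA per cell cannot be told apart in such bulk samples. The first principal component (37.1% of the variance) had replicate 1 of each group at its far end, at -37.1 for cKO 1 and -32.9 for WT 1, and cKO 3 on the same side at -12.8, with the other cKO and WT libraries between 7.68 and 23.0. The second component (28.5%) separated the groups, with cKO libraries between -27.2 and -14.6 and WT libraries between 14.8 and 26.9. Replicate 1's muscle and cartilage markers summed to 242 CPM in cKO and 123 CPM in WT, against 66.8 to 78.4 CPM in the other cKO and 54.7 to 57.1 CPM in the other WT libraries.

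None of the 38 genes changed at the threshold used, a Benjamini-Hochberg adjusted p below 0.05 in edgeR's quasi-likelihood test over all genes. Of the 14592 genes, 397 passed, or 2.72%, with 1.6% higher and 1.12% lower in cKO ganglia. The smallest adjusted p among the 38 was 0.126, for the serine hydroxymethyltransferase gene Shmt2. At an unadjusted p below 0.05 there were 2 of 38 genes (5.26%), Shmt2 and Ppp1r15a, against 16.8% of all genes. Both had higher values in cKO ganglia, as did 9.42% of all genes at that p. The same 2 genes were those whose cKO and WT libraries did not overlap, against 11% of all genes (6% higher and 5.02% lower in cKO). Both shares lay below the background. limma voom passed 0 of the 38 genes and 414 of all 14592. The Wald test of DESeq2 passed 1 of the 38, Shmt2 (adjusted p = 0.0304), and 1012 of all 14592. Log2 fold changes of cKO over WT lay between -0.25 and 0.43, with 25 (65.8%) above and 13 below 0, and 49.9% of all tested genes were above 0. Their median was 0.08, and the median over all tested genes was -0.00063.

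The 95% intervals of 26 of the 38 genes lay wholly within a change of 1.5-fold in either direction, and those of 37 within 2-fold. The gene whose interval passed 2-fold was Nupr1, a small stress-induced chromatin protein with only 20 to 56 counts per library. Its log2 fold change was 0.43 (SE 0.26, 95% interval -0.15 to 1.01).

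**Figure D1:**
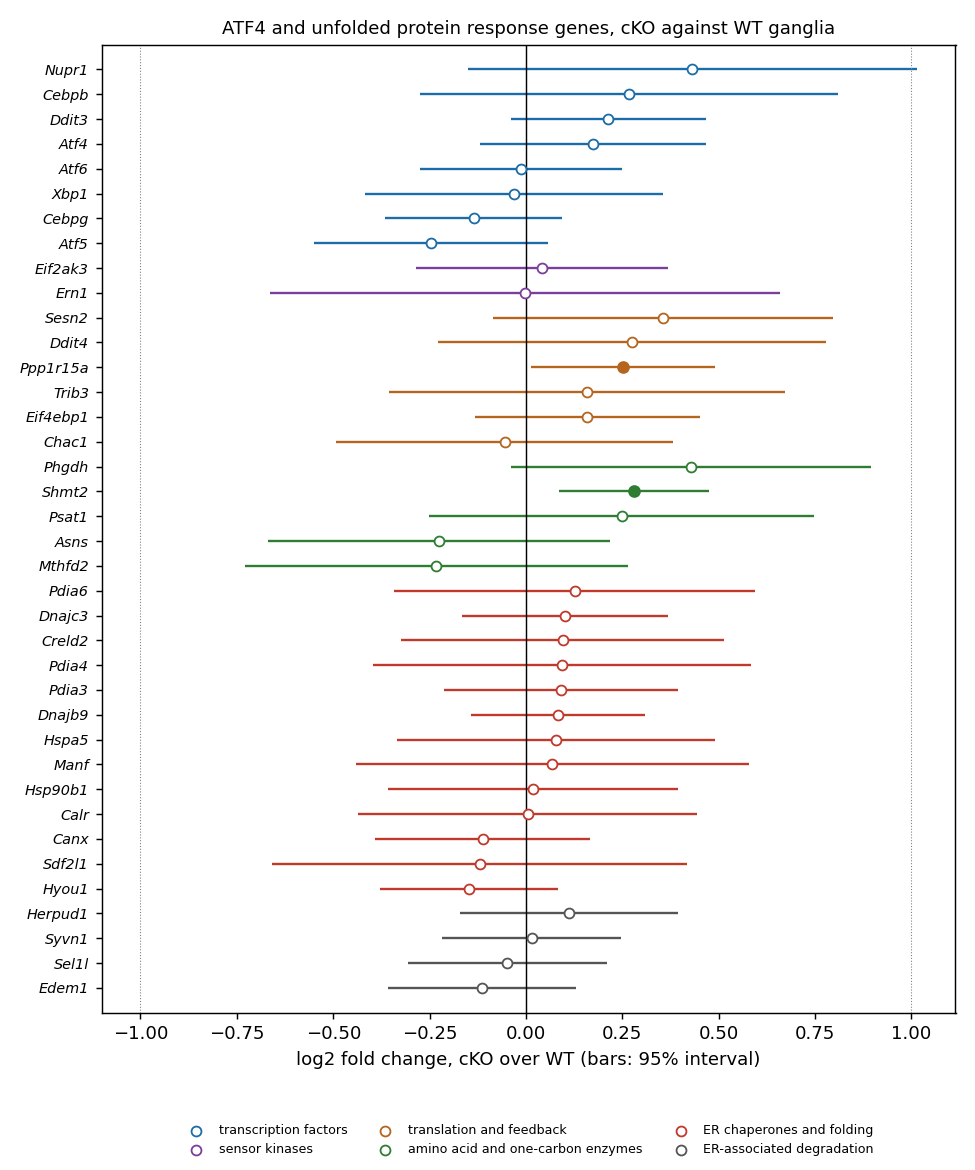
Log2 fold changes of cKO over WT ganglia for the 38 genes, grouped by role, with 95% intervals as horizontal bars from 4 libraries per group. Filled points mark Ppp1r15a and Shmt2, whose groups did not overlap, and dotted lines mark a change of 2-fold.

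Among the 8 transcription factor genes, Atf4, the effector of the integrated stress response (chromosome 15, 80255184 to 80257541, plus strand, GRCm38), had 155, 225, 202 and 207 CPM in cKO 1 to 4 and 147, 186, 190 and 177 CPM in WT 1 to 4. The groups overlapped, since cKO 1 lay below 3 of the WT libraries. Its log2 fold change was 0.17 (SE 0.13, 95% interval -0.12 to 0.47), and the exact two-sided permutation p over 70 assignments of the libraries was 0.314. ATF4 is regulated mainly through translation, so this level does not report on the protein.

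Ddit3, which encodes CHOP, a pro-apoptotic factor downstream of ATF4, had 20.4, 22.6, 24.7 and 23.0 CPM in cKO 1 to 4 and 17.8, 20.1, 22.0 and 18.3 CPM in WT 1 to 4. The groups overlapped at 1 pair of libraries, WT 3 above cKO 1. The exact permutation p was 0.0571, where 0.0286 is the smallest possible, and edgeR's adjusted p was 0.398. Exons of Ddit3 share 68 of 1713 bases with Mars on the opposite strand, and strand handling during counting was not given in the sources used here.

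Xbp1, the target of IRE1 splicing, had 121, 175, 135 and 146 CPM in cKO 1 to 4 and 107, 162, 186 and 135 CPM in WT 1 to 4. The values of the groups were interleaved (log2 fold change -0.03, SE 0.17, exact permutation p = 0.971). Atf6, the ER membrane sensor that becomes a transcription factor after cleavage, had 56.4, 47.5, 50.7 and 46.0 CPM in cKO 1 to 4 and 56.9, 54.6, 42.5 and 48.5 CPM in WT 1 to 4. Its log2 fold change was -0.01 (SE 0.12, 95% interval -0.28 to 0.25).

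The other factors were Atf5, a relative of ATF4, Cebpg and Cebpb, partners of ATF4, and Nupr1. Atf5 averaged 38.7 ± 7.5 CPM in cKO and 45.9 ± 2.0 CPM in WT ganglia (SD, n = 4 each), with a log2 fold change of -0.25 (SE 0.14), the lowest of the list. Its 1993 exon bases overlap those of Nup62 and Il4i1 on the opposite strand, by 164 bases in all. Nup62 averaged 79.1 CPM in cKO and 74.1 CPM in WT ganglia, and its part in the Atf5 count was not tested. Cebpg averaged 49.9 ± 3.2 CPM in cKO and 54.8 ± 5.5 CPM in WT ganglia, and Cebpb was near the limit of these libraries with 24 to 53 counts in each. Cebpb shares 312 of its 1504 exon bases with Tmem189 on the opposite strand, which averaged 36.3 CPM in cKO and 41.4 CPM in WT ganglia, against 2.26 CPM in cKO and 1.88 CPM in WT for Cebpb itself.

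The 2 sensor kinases did not pass. Eif2ak3 (PERK) had 51.8, 43.7, 42.0 and 46.6 CPM in cKO 1 to 4 and 57.9, 43.3, 35.7 and 42.1 CPM in WT 1 to 4, with a log2 fold change of 0.04 (SE 0.15). Ern1 (IRE1) had 22.0, 12.5, 17.7 and 9.92 CPM in cKO 1 to 4 and 20.5, 13.5, 8.76 and 19.6 CPM in WT 1 to 4. Within a group Ern1 varied more than any other of the 38 genes: its within-group SD averaged 0.54 on the log2 scale. Group means were nearly equal (15.5 ± 5.4 CPM in cKO and 15.6 ± 5.5 CPM in WT ganglia, SD, n = 4 each), but the 95% interval reached from -0.66 to 0.66, which is a fold of 0.631 to 1.58.

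Of 6 genes that act on translation or feed back on the pathway, Ppp1r15a came closest to a difference. It encodes GADD34, the stress-induced subunit that directs a phosphatase to eIF2 and so restores translation. Its level was 43.7, 42.7, 43.9 and 45.1 CPM in cKO 1 to 4 and 42.5, 32.9, 33.2 and 38.6 CPM in WT 1 to 4. The cKO libraries lay within a narrow range just above WT 1, and the WT libraries were spread. The log2 fold change was 0.25 (SE 0.11, 95% interval 0.01 to 0.49), and the gene did not pass (edgeR adjusted p = 0.268).

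Trib3, a pseudokinase that dampens ATF4 activity, had 6.22, 7.28, 6.47 and 4.58 CPM in cKO 1 to 4 and 6.92, 5.01, 3.49 and 6.56 CPM in WT 1 to 4. Chac1, a glutathione-degrading enzyme that marks strong ATF4 activity, had 3.83, 6.50, 4.25 and 6.09 CPM in cKO 1 to 4 and 4.96, 4.95, 5.61 and 5.95 CPM in WT 1 to 4. Both were low. The groups were interleaved for Trib3, and for Chac1 the WT range lay inside the wider cKO range. Both promoters hold the CEBP-ATF element, shown above for Chac1. Log2 fold changes were 0.16 (SE 0.23) for Trib3 and -0.06 (SE 0.20) for Chac1. Sesn2 and Ddit4, inhibitors of the growth kinase mTORC1, had 0.36 (SE 0.20) and 0.28 (SE 0.23), and Eif4ebp1, a repressor of cap-dependent translation, 0.16 (SE 0.13). The highest Ddit4 library was 2.13 times its lowest, the cKO range of 18.5 to 37.4 CPM enclosed the WT range of 17.5 to 28.7 CPM except at its lower end, and Sesn2 had 34 to 76 counts per library.

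The 5 enzymes of asparagine, serine and one-carbon synthesis, which ATF4 induces as a block when amino acids run short, had values on both sides of 0, and none passed. Shmt2, the mitochondrial enzyme that takes serine into one-carbon metabolism, had 55.7, 62.3, 60.7 and 56.4 CPM in cKO 1 to 4 and 50.5, 47.6, 47.3 and 48.2 CPM in WT 1 to 4. Every cKO library lay above every WT library, and both groups were tight. The log2 fold change was 0.28 (SE 0.09, 95% interval 0.09 to 0.48), and edgeR gave an unadjusted p of 0.0089 and an adjusted p of 0.126. Exons of Shmt2 share 32 of 3109 bases with Ndufa4l2 on the opposite strand, which rose (log2 fold change 1.24, SE 0.22, edgeR adjusted p = 0.0182), and its part in the Shmt2 count was not tested. Nor was that of the fibroblast and vessel markers, whose sums were higher in every cKO library than in any WT library.

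Phgdh, the first enzyme of serine synthesis, had 10.6, 20.7, 15 and 19.5 CPM in cKO 1 to 4 and 10.0, 11, 14.0 and 13.8 CPM in WT 1 to 4. Only cKO 1 lay within the WT range, and the log2 fold change was 0.43 (SE 0.21, edgeR adjusted p = 0.349). Without replicate 1 of both groups it was 0.51, with an edgeR adjusted p of 0.139. With single libraries left out it lay between 0.30 and 0.58. Psat1, the next enzyme of the pathway, averaged 55.1 ± 16.4 CPM in cKO and 46.4 ± 10.2 CPM in WT ganglia (log2 fold change 0.25, SE 0.23).

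The values of the other enzymes were below 0. Asns, asparagine synthetase, had 98.7, 164, 123 and 180 CPM in cKO 1 to 4 and 119, 180, 183 and 180 CPM in WT 1 to 4, a log2 fold change of -0.23 (SE 0.20). Mthfd2, a mitochondrial folate enzyme that follows SHMT2 in the one-carbon pathway, had 61.9, 128, 98.2 and 109 CPM in cKO 1 to 4 and 78.8, 126, 138 and 122 CPM in WT 1 to 4. Its log2 fold change was also -0.23 (SE 0.22). Replicate 1 was the lowest of its group in both genes and in both groups, and without replicate 1 of both groups the log2 fold changes were -0.22 for Asns and -0.21 for Mthfd2. With single libraries left out, that of Asns lay between -0.36 (without cKO 4 or WT 1) and -0.10 (without cKO 1). That of Mthfd2 lay between -0.39 (without WT 1) and -0.07 (without cKO 1).

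**Figure D2:**
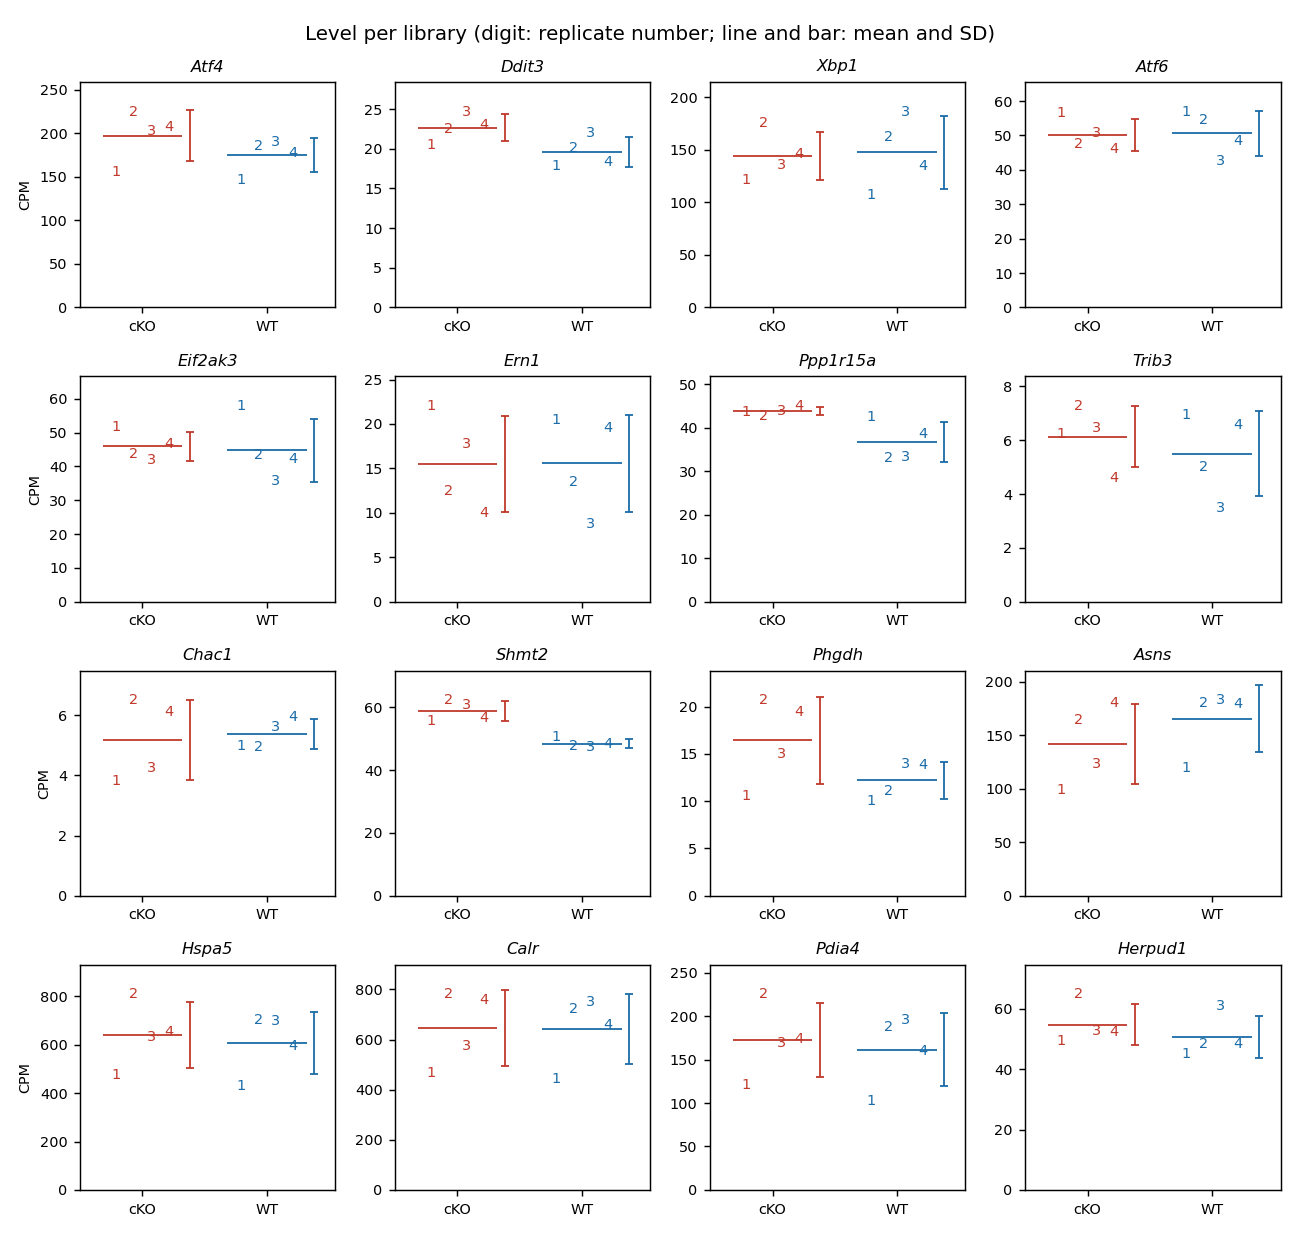
CPM of 16 of the 38 genes in each library, with cKO left and WT right in every panel. Digits are replicate numbers, horizontal lines group means and vertical bars the SD (n = 4). Shmt2 and Ppp1r15a separate the groups, while in Hspa5, Calr, Pdia4, Asns and Xbp1 replicate 1 is the lowest of both groups.

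None of the 13 ER chaperone and folding genes passed. Their log2 fold changes lay between -0.15 and 0.13, and the 95% intervals of 11 lay within a change of 1.5-fold. Mean levels differed widely among them, with 15.5 CPM in cKO and 16.9 CPM in WT ganglia for Sdf2l1 and 658 CPM in cKO and 711 CPM in WT ganglia for Canx. Hspa5, which encodes BiP, the chief ER chaperone and the gatekeeper of the stress sensors (chromosome 2, 34771970 to 34777547, plus strand, GRCm38), had 473, 810, 630 and 651 CPM in cKO 1 to 4 and 431, 704, 698 and 595 CPM in WT 1 to 4. The groups overlapped across most of their range. Its log2 fold change was 0.08 (SE 0.19), the exact permutation p was 0.743, and the 95% interval corresponds to a fold of 0.793 to 1.41.

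Hsp90b1 (GRP94) averaged 693 ± 131 CPM in cKO and 685 ± 132 CPM in WT ganglia, and the lectin chaperone gene Calr averaged 645 ± 151 CPM in cKO and 643 ± 140 CPM in WT ganglia (SD, n = 4 each). Their log2 fold changes were 0.02 (SE 0.17) and 0.0046 (SE 0.20). Canx, the membrane-bound partner of calreticulin, had -0.11 (SE 0.13). The disulphide isomerase genes Pdia3, Pdia4 and Pdia6 had 0.09 (SE 0.14), 0.09 (SE 0.22) and 0.13 (SE 0.21). The secreted or ER-resident stress proteins Manf, Creld2 and Sdf2l1 had 0.07 (SE 0.23), 0.10 (SE 0.19) and -0.12 (SE 0.24). Hyou1, a large Hsp70-like chaperone, had -0.15 (SE 0.10), and the BiP co-chaperones Dnajb9 and Dnajc3 had 0.08 (SE 0.10) and 0.10 (SE 0.12). Over the 13 genes the median was 0.08, and it was 0.06 without replicate 1 of both groups. Its sign depended on single libraries: it was -0.07 without cKO 2, 0.02 without cKO 4 and -0.08 without WT 1.

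The chaperone levels also varied between libraries of 1 genotype. Summed over the 13 genes, cKO 1 to 4 had 3159, 4868, 3810 and 4395 CPM, and WT 1 to 4 had 3025, 4531, 4439 and 4000 CPM. Replicate 1 was the lowest library of its group in both groups for 11 of the 13 genes (84.6%), with Dnajb9 and Dnajc3 as the exceptions. The same held for 4 of the 5 enzymes of amino acid synthesis, all but Shmt2, and for 24.2% of all tested genes. For the sensor kinases the order was turned round, with replicate 1 the highest of both groups in Eif2ak3 and Ern1, as in 22.8% of all genes. Muscle and cartilage markers were high in these libraries, as given above, and summed markers of dividing cells were 375 CPM in cKO 1, with 311 to 457 CPM in the other cKO libraries, and 218 CPM in WT 1, with 315 to 358 CPM in the other WT libraries. The part of these cells in the chaperone levels was not tested.

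The order of the libraries was also read by promoter motif. Of the 8 genes with an ER stress element, replicate 1 was the lowest in both groups in 6 (75%), while for Syvn1 it was the highest in both. Of the 5 genes with a CEBP-ATF element it was the lowest in both groups in 2 (40%), and the share over all tested genes was 24.2%. Over all 13 chaperone and folding genes, replicate 1 was the lowest in both groups in 11 (84.6%). The order was thus not particular to genes with a match to the ER stress element. An exact search of the promoter window cannot show that a gene lacks the element. Pdia3, Pdia4 and Sdf2l1 followed the order without a match in the window. Hyou1 and Manf followed it too and had no matched promoter. Pdia4 had 121, 225, 169 and 173 CPM in cKO 1 to 4 and 102, 187, 196 and 160 CPM in WT 1 to 4.

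**Figure D3:**
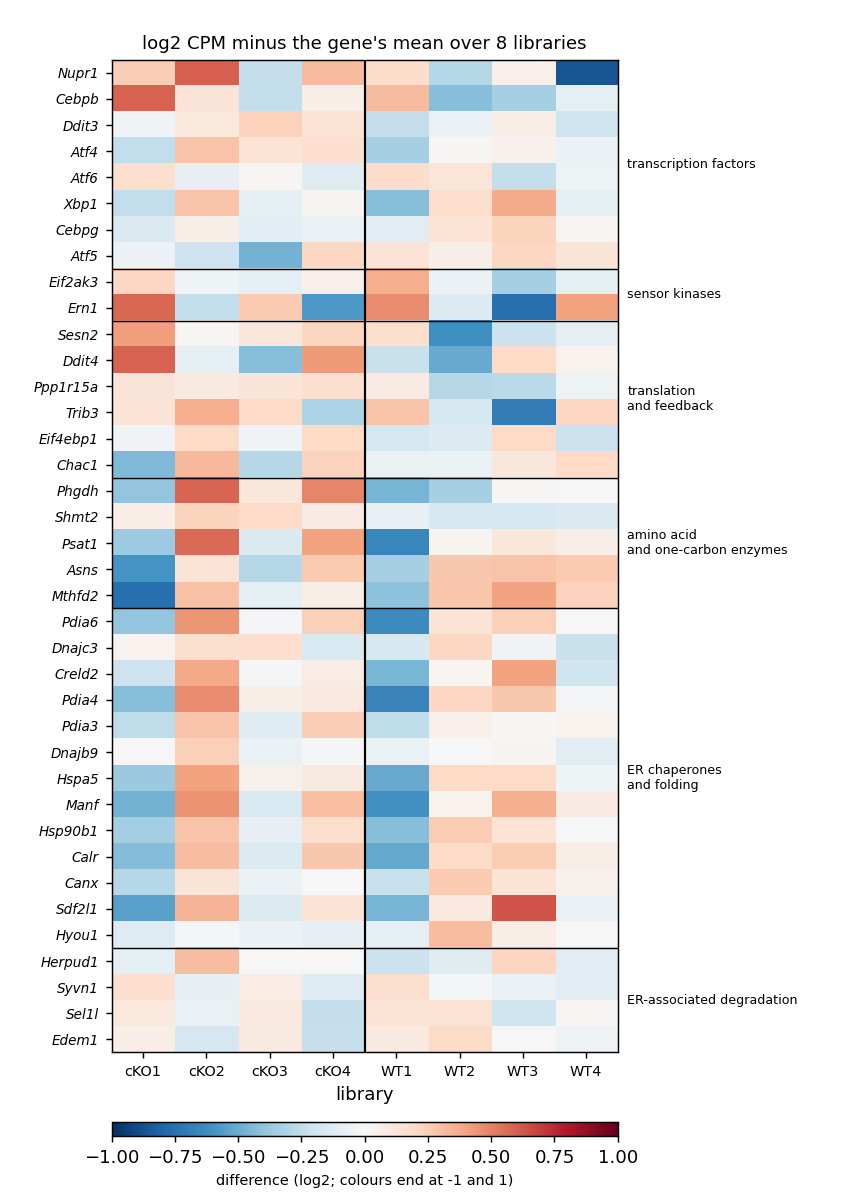
Log2 CPM of each gene minus its mean over the 8 libraries, with the 4 cKO libraries left of the 4 WT libraries and genes grouped by role. Blue cells of most chaperones and of Asns, Psat1, Phgdh and Mthfd2 fall in replicate 1 of both groups, where Eif2ak3 and Ern1 are red.

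Of 4 genes of ER-associated degradation, which returns misfolded proteins to the cytosol for the proteasome, none passed. Herpud1, a stress-induced scaffold of the complex, had 49.3, 64.9, 52.5 and 52.5 CPM in cKO 1 to 4 and 45.2, 48.2, 60.9 and 48.4 CPM in WT 1 to 4. The highest library of each group stood well above the others of that group. Its log2 fold change was 0.11 (SE 0.13). Syvn1, the ubiquitin ligase HRD1, and Sel1l, its partner, had 0.01 (SE 0.10) and -0.05 (SE 0.12), and Edem1, which selects glycoproteins for degradation, had -0.11 (SE 0.11). The 95% intervals of all 4 genes lay within a change of 1.5-fold.

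Per kilobase of exon (exon lengths from GENCODE vM21, build GRCm38), 5 folding genes led the list. Calr had mean levels of 224 CPM per kilobase in cKO and 223 in WT ganglia, followed by Pdia3 with 194 in cKO and 182 in WT, and Hsp90b1 with 172 in cKO and 170 in WT. Atf4 was the sixth in both groups, with 83.7 in cKO and 74.1 in WT, and so the most abundant transcription factor gene here, ahead of Xbp1 with 44.5 in cKO and 45.4 in WT. At the low end stood Chac1 with 3.16 in cKO and 3.28 in WT, Trib3 with 2.89 in cKO and 2.59 in WT, Ern1 with 1.90 in both groups, and Cebpb, Sesn2 and Nupr1 with 1.05 to 1.5 in cKO and 0.779 to 1.25 in WT. Ranks 1, 2 and 3 and the 6 lowest ranks were held by the same genes in both groups, whereas Canx and Hspa5 changed places at 4 and 5 within their spread.

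**Figure D4:**
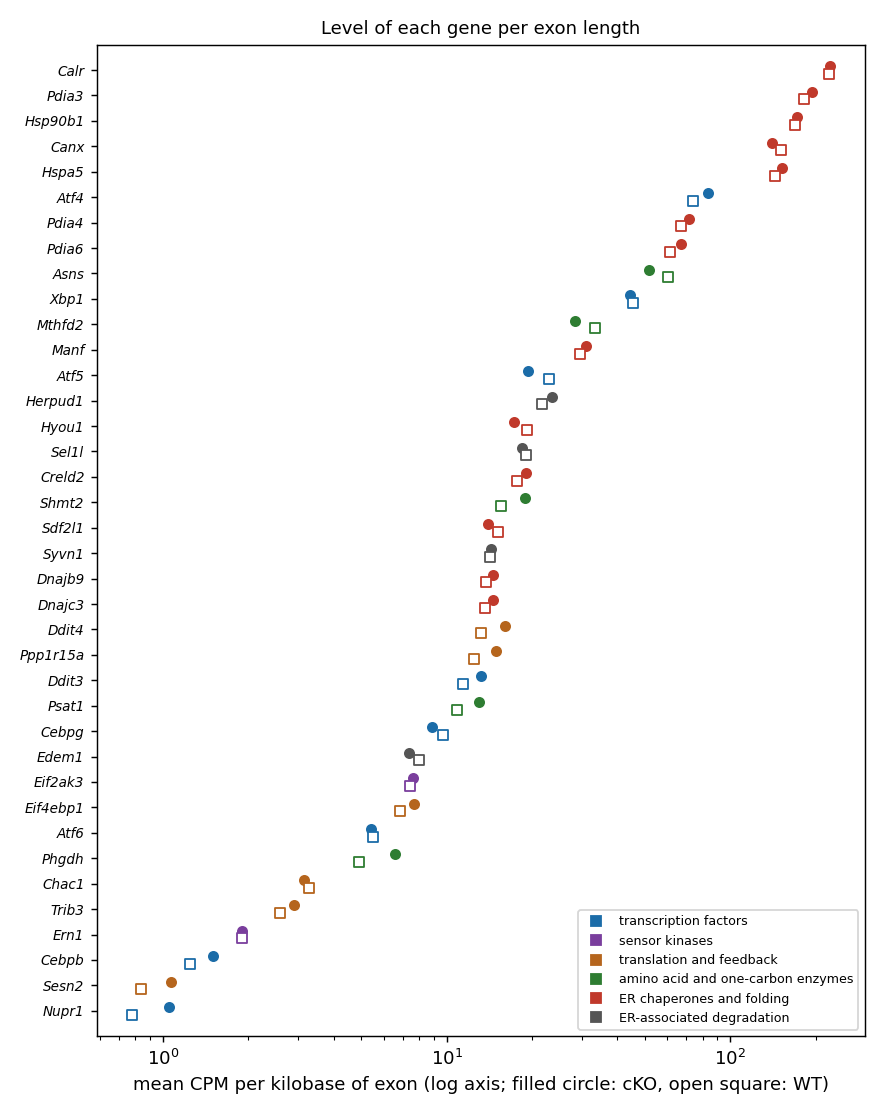
Mean CPM per kilobase of exon on a log axis for the 38 genes, ordered by the WT mean, with filled circles for cKO and open squares for WT. Calr, Pdia3, Hsp90b1, Canx and Hspa5 lie at the top and Trib3, Chac1, Ern1, Cebpb, Sesn2 and Nupr1 at the bottom, with both groups close together throughout.

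Beyond the 38, further genes of the pathways were read from lists. Of 43 tested genes among 48 other genes of the integrated stress response, 0 rose and 1 fell. Over all genes 2.72% passed, so 1 call in 43 genes is close to the background. The groups did not overlap in 2 (4.65%), against 11% of all genes. The gene that fell was Slc7a3, which encodes a transporter of cationic amino acids. It had 11.8, 12.7, 13 and 14.6 CPM in cKO 1 to 4 and 22.5, 19.8, 22.3 and 18.9 CPM in WT 1 to 4. All cKO libraries lay below all WT libraries, with a log2 fold change of -0.68 (SE 0.12) and an edgeR adjusted p of 0.0181. The median of the list was -0.03. The call was lost without cKO 2 (adjusted p = 0.0542), cKO 3 (0.0548), WT 2 (0.0615) or WT 4 (0.0543) and without both libraries numbered 4 (0.0659), where the log2 fold change was between -0.78 and -0.67.

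Of 54 tested genes among 55 other genes of ER folding, translocation and degradation, 0 rose and 1 fell, Wfs1, which was also the 1 gene without overlap (1.85%). Over all genes 2.72% passed, so 1 call in 54 genes is close to the background, and the groups did not overlap in 11%. Wfs1 encodes wolframin, an ER membrane protein that is itself a target of the unfolded protein response and is lost in Wolfram syndrome. Its level was 39.8, 40.0, 38.3 and 47.7 CPM in cKO 1 to 4 and 60.8, 66.1, 65.1 and 65.5 CPM in WT 1 to 4. The groups were far apart relative to their spread (log2 fold change -0.64, SE 0.10, edgeR adjusted p = 0.0114). The median of this list was 0.04. Without WT 2, without WT 4 and without both libraries numbered 4 the adjusted p was 0.0549, 0.0561 and 0.053, and the log2 fold change was -0.62, -0.63 and -0.70. Summed sympathetic neuron markers were lower in every cKO library than in any WT library, and their part in the levels of Wfs1 and Slc7a3 was not tested.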

How the data were processed

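The authors deposited 1 table of raw read counts, whole numbers by gene symbol with a column for each animal. Per the submitters' processing notes, reads were aligned with STAR to mm10. STAR's version, the counting program, annotation and strand handling were not given in the sources used here. Per the labels' protocols, polyadenylated RNA was prepared with a TruSeq v2 kit after an integrity check.

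The test was edgeR 4.0.16 (R 4.3.3) with filterByExpr, TMM scaling and a robust quasi-likelihood fit of the 2 groups, with Benjamini-Hochberg adjustment over 14592 genes. Each SE is the size of the log2 fold change over the square root of its F statistic, and 95% intervals use the total degrees of freedom. CPM values use TMM-scaled library sizes. Permutation tests enumerated 70 assignments. Replicates differed by more than sampling noise (chi-square per gene from 6.65 to 46.5 within groups).

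Exon lengths and overlaps come from GENCODE vM21, and promoters from RefSeq GRCm38.p6. Members and lists were chosen with earlier results of these data known, so lists were described by counts and medians and not tested. All members were named, with up to 4 passing genes of every other pathway list, or its 2 genes of smallest p when no gene passed. Ndufa4l2, Tmem189, Nup62 and Il4i1 were named after the results were seen, because they overlap members, and Kif1b as the targeted gene. Alternatives were DESeq2 1.42.0 (size factors and Wald test), library size alone, 2 other filters, limma 3.58.1 voom, a block for the replicate number, and libraries left out singly and in numbered pairs. Figures were drawn with matplotlib 3.10.9.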

Additional observations from a re-analysis of the deposited data

Results flagged for a closer look

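Each gene's 4 libraries per group were examined for a value far from the other 3, in 76 sets of 4. The gap to the nearest library, divided by the range of the group, exceeded Dixon's limit in 3 of them, and chance flags about 1 in 20 such sets. All 3 were the WT 1 library. Asns had 119 CPM in WT 1, and the other WT libraries lay between 180 and 183 CPM. Psat1 had 31.2 CPM there, and the others 50.1 to 53.2 CPM. Pdia3 had 492 CPM there, and the others 592 to 606 CPM. In all 3 genes cKO 1 was also the lowest cKO library, without passing that limit.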

How the results depend on the processing

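With all libraries, 397 genes passed (234 higher and 163 lower in cKO ganglia). The Wald test of DESeq2 gave 1012 (565 higher, 447 lower), and without both libraries numbered 4 there were 65 (26 higher, 39 lower). With 1 library left out, which also lowers power, the count lay between 74 (without WT 4) and 514 (without WT 1), with 33 to 318 higher and 40 to 196 lower. It was 147 without cKO 2, 137 without cKO 3, 79 without WT 2 and 249 without WT 3. The cause was not tested. Of the 38 members, 0 passed under every alternative run except the Wald test of DESeq2, which passed 1, Shmt2, and with each library left out 0 rose and 0 fell. The median of the members was then between 0.0081 (without cKO 2) and 0.104. A block for the replicate number gave 687 genes (425 higher, 262 lower) and 0 members, and left 4 members at an unadjusted p below 0.05, Phgdh, Shmt2, Mthfd2 and Ppp1r15a. Nothing in the labels says what the numbers mark, and the samples were not treated as paired: same-numbered libraries deviated from their group means with correlations of 0.72, 0.35, -0.30 and 0.27, and 1 of the 4 cKO libraries was closest to its own number. The sign of the fold change turned in 9 members without cKO 2 and in 9 without WT 1, in 6 without cKO 4 and in 4 with library size alone, which moved the median of all genes to 0.05. Depth limits Nupr1, Cebpb and Sesn2, with as few as 20, 24 and 34 counts.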

Other observations

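Protein quality control outside the ER was also measured. None of 16 cytosolic heat shock genes passed in edgeR's test, and 2 (12.5%) had an unadjusted p below 0.05, against 16.8% of all genes. The Wald test of DESeq2 passed 1 of the 16, Bag3, and 1012 of all 14592 genes. Bag3, a co-chaperone of selective autophagy, had 140, 153, 146 and 161 CPM in cKO 1 to 4 and 178, 175, 202 and 186 CPM in WT 1 to 4. Every cKO library lay below every WT library. Bag3 was the 1 gene of the 16 without overlap (6.25%), against 11% of all genes, and its log2 fold change was -0.30, with an SE of 0.09 (adjusted p = 0.116 in edgeR and 0.0168 in DESeq2). Cryab, a small heat shock protein gene that glia also express, had 60.8, 104, 70.7 and 109 CPM in cKO 1 to 4 and 44.2, 47.8, 75.8 and 57.7 CPM in WT 1 to 4, so the groups overlapped, and its log2 fold change was 0.61, with an SE of 0.22 (adjusted p = 0.182 in edgeR). Summed glial markers were 1602 to 1806 CPM in cKO and 1307 to 1633 CPM in WT libraries, and their part in Cryab was not tested. The median of the heat shock list was -0.06.

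None of 13 genes of mitochondrial protein quality passed in edgeR's test, and 0 had an unadjusted p below 0.05, against 16.8% of all genes. The AAA protease gene Afg3l2 and the co-chaperone gene Dnaja3, with the smallest p, stood at -0.14 (SE 0.09) and -0.21 (SE 0.16) on the log2 scale. Of the 13 genes, 10 had a negative and 3 a positive value (median -0.05), where 49.9% of all tested genes were positive.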
